A study of Mus musculus with 288 samples.

Results

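The cells described here are single mouse embryonic stem cells sorted 24 h after release from 2i, under the label D1. A well counted as a cell where it held more than 200000 reads on genes, more than 2000 genes with a read and a mitochondrial share of reads under 15%. By this rule 50 of the 96 wells labelled D1 were kept, out of 288 wells in the series and 233 cells that passed under its 3 labels. The other labels, D0 with 90 cells and D2 with 93, stand for 0 h and 48 h. The labels give the same line and background for all of them, E14 of strain 129/Ola, kept in N2B27 medium with leukaemia inhibitory factor (LIF), the GSK3 inhibitor CHIR99021 and the MEK inhibitor PD0325901 (the 2 inhibitors of 2i) on gelatine. At the start of the release this medium was replaced by one with fetal bovine serum and LIF, in which the cells labelled D1 spent 24 h and those labelled D0 spent none. The transcriptomes come from scNMT-seq, in which a cell's polyA RNA is taken apart from its DNA, and each sorted cell was incubated with a methylase before it was lysed. The labels show a single plate for each time and do not say how many cultures it was sorted from. Cells are therefore not replicates of a condition, plate and time cannot be told apart, and the values below are descriptions without a test.

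In 2i, blocked MEK signalling and raised β-catenin hold embryonic stem cells in a naive state in which DNA methylation is low. When the inhibitors are removed, ERK signalling returns, the de novo methyltransferases are switched on and naive genes begin to be lost, a passage through a formative state that resembles the change of the epiblast around implantation. Dnmt3a and Dnmt3b encode the enzymes that place new methyl groups on DNA, Dnmt3l a cofactor without catalytic activity, and Pou3f1 (Oct6) a transcription factor of formative and primed cells.

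All 46 wells that failed were under the limit on reads, 40 of them were also under the limit on genes, and 1 was over the mitochondrial limit, at 34.2%. The lowest read total that passed was 202157 and the highest that failed was 124454, in a well with 6263 genes. The median of the failed wells was 1436.5 reads. Passing cells had a median of 7956161.5 reads (range 202157 to 43336922), 10675.5 genes with a read and a mitochondrial share of 3.32% (0.739% to 10.2%). No pair of passing wells held identical counts, and no doublet caller was run on these sorted wells. Unless stated otherwise, levels are CPM, the reads of a gene as a share of all reads on genes in that cell, scaled to a total of 1000000, given as the mean over 50 cells ± the SD between cells. Intervals on shares of cells are exact binomial ones and treat the cells of 1 plate as independent draws.

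Wells B05, B06 and B07 stood apart from the rest. B05 and B06 had no read of Hprt, the purine salvage gene, while each of the other 48 cells had at least 18.7 CPM. On 5994 genes, the profile of each D1 cell was correlated with the mean of the other D1 cells and with the means of D0 and D2. The 48 cells with an Hprt read were nearest to the other D1 cells, and the 2 without were nearest to D2. B07 had the lowest similarity to the other D1 cells (Pearson r = 0.52, against a median of 0.81 over the 50 cells). After each cell was thinned to 200000 reads, B07 had 2062 genes with a read where the median over the 48 cells was 8079. A further 9 cells, in B11, C10, C11, D03, E03, F02, F03, F07 and G06, stood apart in Eef1a1, which encodes a translation elongation factor. They had 196 to 1801 CPM of it, and the other 39 cells with an Hprt read 2719 to 11446 CPM. After thinning the 9 cells had 6158 to 8127 genes (median 6716), against a median of 8202 in the 39. These cells were picked at a limit of 2000 CPM after their values had been seen, and what set them apart was not tested. Spread and co-variation are therefore given over the 48 cells with an Hprt read, with and without B07 and, for co-variation, without the 9 cells, and B05 and B06 are described at the end.

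Hprt, ferritin and Y-linked reads were compared between the labels, which all name E14. For this line the paper cites a report whose title names HPRT-deficient mouse embryos. It does not state whether its own E14 cells lack Hprt. If they do, it is most D1 cells, not most of D0 or D2, that depart from the label. Hprt had a read in 48 of 50 cells at 24 h (96%, exact 95% interval 86.3% to 99.5%), beside 9 of 90 labelled D0 (10%) and 7 of 93 labelled D2 (7.53%). The share of the reads of 2 ferritin light chain genes, Ftl1 and its near-identical copy Ftl2, that fell on Ftl2 was 0.507% on average in the 48 cells and did not exceed 3.31% in any of them. The reads of these copies cannot be assigned with certainty. At D0 the mean levels of Ftl1 and Ftl2 were 390 and 664 CPM and at D2 613 and 1136 CPM, against 1787 and 36.8 CPM at D1. The Y-linked gene Ddx3y was read in 45 of 50 cells at D1, in 3 of 90 at D0 and in 3 of 93 at D2. Whether the D1 plate holds the same stock of cells as the others cannot be told from the labels, and stock, plate and time cannot be told apart in any value set beside D0 or D2.

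The 3 methyltransferase genes of the label were read in nearly every cell, at levels that differed widely between cells. Dnmt3l was read in 50 of 50 cells, with a lowest value of 78 CPM, a median of 672 and a highest of 2160. Dnmt3b ranged from 0 over a median of 319 to 1326 CPM. Dnmt3a ranged from 0 over 170 to 1118 CPM and was read in 48 cells. Its SD of 272 CPM exceeded its mean of 252 CPM, whereas the SD of Dnmt3l, 455 CPM, was well under its mean of 748 CPM. Pou3f1 was low. It was read in 38 cells (76%, interval 61.8% to 86.9%), with a mean of 12.2 ± 15.2 CPM, a median of 6.47 and a highest of 65.9. At 200000 reads per cell 58% of cells had a Pou3f1 read, which at that depth means at least 5 CPM, and in the random draw used for the spread below it was 25 of 48 cells. Pou3f1 was read in 3 of 90 cells labelled D0 and in 5 of 93 labelled D2, both of lower depth. Otx2 and Fgf5, further genes of formative and primed cells, were read in 14 and 5 of 50 cells. The mean of Otx2 was 8.12 CPM, beside 12.7 CPM at D0 and 38.4 CPM at D2. The mean of Dnmt3b was 367 CPM, beside 114 CPM at D0 and 464 CPM at D2.

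**Figure D1:**
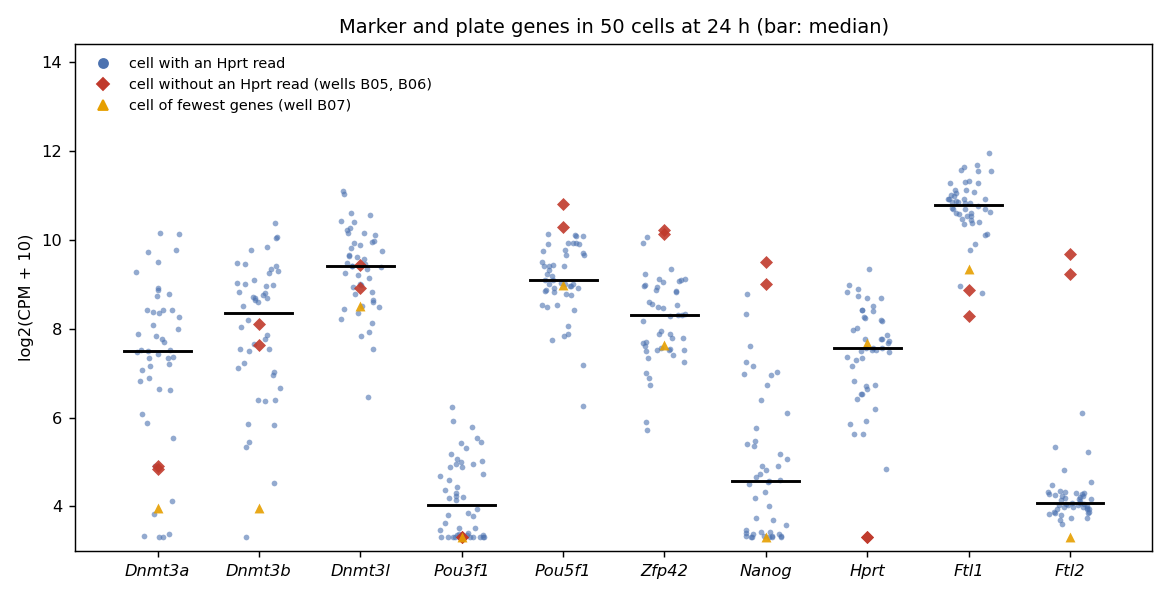
Levels of marker and plate genes in the 50 cells at 24 h, each point 1 cell and the bar the median, as log2(CPM + 10) on the y axis, with B05 and B06 (no Hprt read) as red diamonds and B07 as an orange triangle. Dnmt3l stays above 78 CPM in every cell, Dnmt3a reaches from 0 to 1118 CPM, and the 2 cells without Hprt lie above the others for Nanog, Zfp42 and Pou5f1.

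General pluripotency genes were read in most cells, Lin28a in 44, Sox2 in 48, and Sall4 and Utf1 in 49 of 50. Pou5f1 (Oct4), the central pluripotency factor, was read in 50 cells at 633 ± 323 CPM with a lowest of 66.9, and Zfp42 (Rex1), which is also a naive gene, in 50 cells at 362 ± 263 CPM. The signalling cofactor Tdgf1 (Cripto) was read in 50 cells, from 4.25 to 2037 CPM. Nanog, a naive factor, behaved differently. Its mean of 67.2 CPM was far above its median of 13.9 CPM, as a few cells reached up to 711 CPM. The highest 2 of these were B06 and B05, and over the other 48 cells the mean was 44.7 CPM, the median 13.6 and the highest 426.

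Markers of other cell types were checked as whole lists, by their summed level in each of the 48 cells at 200000 reads. The summed level of 7 primitive endoderm genes did not exceed 30 CPM in any cell, that of 6 mesoderm genes 35 CPM, that of 5 ectoderm genes 120 CPM, and that of 6 genes of the 2-cell-like state 15 CPM. Gata6, Foxa2, Neurog2, Zscan4c, Zscan4d, Zfp352 and Tcstv3 were without a read in all 50 cells. Other members of these lists had reads at full depth. Nes was read in 28 of 50 cells and Pax6 in 22 (means of 9.59 and 9.02 CPM), Hand1 in 8 and Dab2 in 5. The summed level of 8 fibroblast and feeder genes reached 535 CPM through Vim. Embryonic stem cells also make Vim, which was read in 49 of 50 cells at 181 CPM. Of the others Thy1 was read in 17 cells (mean 2.12 CPM) and Col1a1 in 9 (1.43 CPM), while Lum and Postn were at 0. Of the 8 trophectoderm genes Krt18 was read in 27 of 50 cells, Krt8 in 21 and Gata3 in 16. The summed level of the 8 had a median of 15 CPM but reached 1605 CPM in 1 cell. That cell, in well E04, is described with the spread.

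Genes were ranked by mean CPM, with no correction for length. Among genes with an established symbol, mt-Co1, a subunit of cytochrome c oxidase, had the highest mean at 16806 ± 11448 CPM (range 1576 to 65200). It was followed by Actb (β-actin, 9632 ± 4820 CPM), the chaperone Hsp90aa1 (9430 ± 4016 CPM) and the nucleolar histone chaperone Npm1 (9358 ± 4106 CPM). Of the 25 highest, 7 encode ribosomal proteins (Rpl5, Rps27a, Rplp0, Rpl23, Rpsa, Rpl41 and Rps29) and 4 are encoded by the mitochondrial genome (mt-Co1, mt-Nd1, mt-Cytb and mt-Nd5). Hsp90ab1 (6573 CPM) and Hspa8 (4353 CPM) are further chaperones, Eef1a1 (4912 CPM) and Eif5a are translation factors, and Ncl and Npm1 belong to the nucleolus. Ppia, Prdx1, Set, Fth1 and Atp5b complete the list together with Dppa5a, at 4483 ± 2608 CPM (range 909 to 12359). Dppa5a, an RNA-binding protein of pluripotent cells, is the one gene among the 25 that marks pluripotency. Together the 25 took between 8.87% and 18.8% of the reads of a cell, with a median of 12.5%, so no small set of genes dominated these libraries. Gm26917, which has no established symbol, had a mean of 13574 CPM and is left out of the ranking.

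Per kilobase of transcript, 15 of the 25 remained. mt-Co1 stayed first (10878 CPM per kb), followed by mt-Nd1 (8242) and Dppa5a (7242). On this scale 13 of the 25 encode ribosomal proteins and 3 are mitochondrial. Ribosomal protein genes, Npm1, Ppia and Actb have many processed copies in the genome, and how the authors' counting split reads among copies is not given in the sources used here, so their levels are uncertain. Of the 54230 genes of the table, 25278 were read in 1 cell or more and 1195 in all 50.

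**Figure D2:**
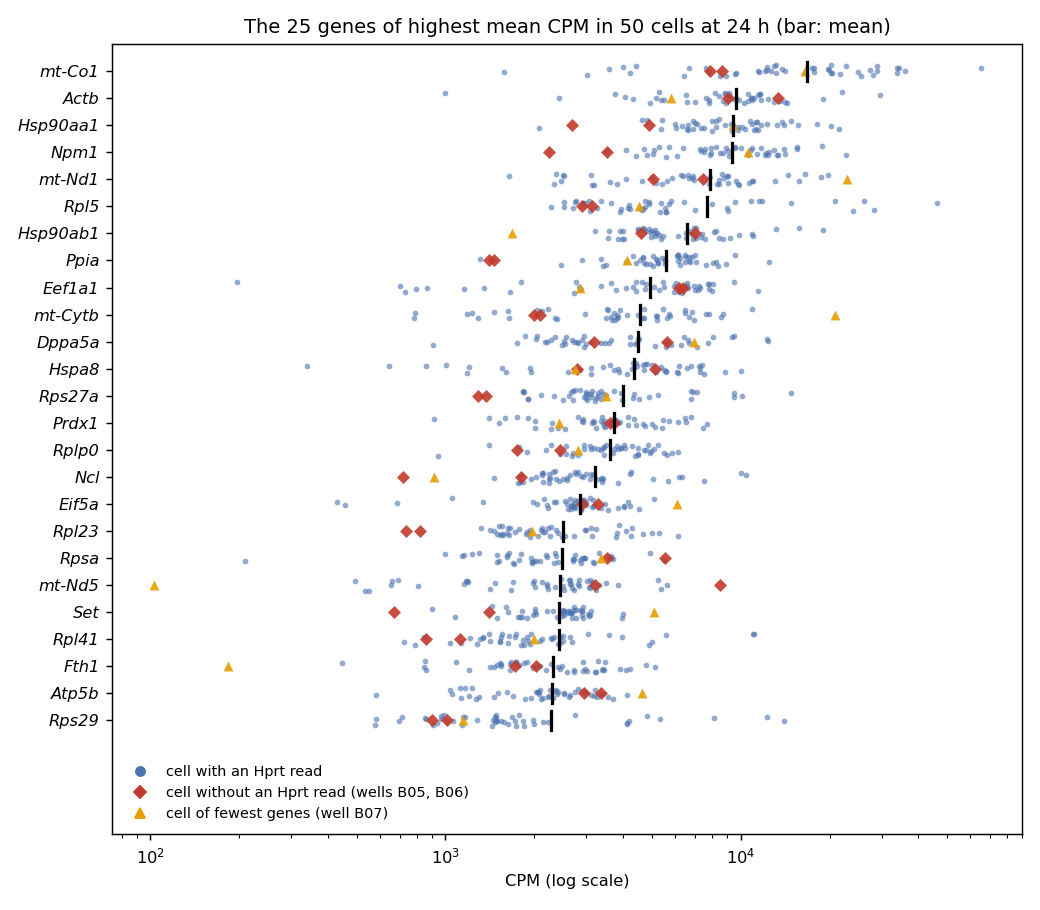
The 25 genes with established symbols of highest mean CPM, each point 1 of the 50 cells (B05 and B06 as red diamonds, B07 as an orange triangle) and the bar the mean, with CPM on a log x axis. mt-Co1 spreads from 1576 to 65200 CPM, while Hsp90aa1 and Npm1 stay within narrower ranges around means of 9430 and 9358 CPM.

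Spread between cells was measured at equal mean. Each of the 48 cells with an Hprt read was thinned to 200000 reads, the squared coefficient of variation (CV squared, the variance over the squared mean) was computed for the 5359 genes with a mean of at least 5 thinned reads (25 CPM), and its log2 was set against the running median of the genes nearest in mean. This difference is called the excess, and a gene with an excess of at least 1, that is a CV squared at least 2-fold that of genes of like mean, is called wide. By this measure 675 of 5359 genes, or 12.6%, were wide, and 511 of 5349, or 9.55%, without B07. Counts of wide genes within the lists below are to be read against these shares. Urah (1.01) and Ate1 (1.00) lay just inside the limit, and Prrg4 and Helb, both at 1.00 after rounding, just outside.

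The leading genes of this ranking were carried by single cells. Birc2, an inhibitor of apoptosis, had the highest excess (5.78). Its lowest value was 0, its median 10 and its highest 4565 CPM, in B07, and that cell held 75.5% of all thinned Birc2 reads. Msantd4 (5.71) and Spag9 (5.66) followed, and the same cell held 83.1% of the Spag9 reads. Of the 25 genes of largest excess, 22 were highest in B07, and 21 had more than 50% of their reads in 1 cell. The median share of the highest cell was 66.5% over these 25 genes and 7.84% over all genes tested. Of the 675 wide genes, 252 were highest in B07, which has 350065 reads in all, a mitochondrial share of 7.15% and the fewest genes. Another 88 were highest in F02, a cell with 478464 reads. Without B07 there were 511 wide genes of 5349, and only 3 of the 25 remained among the 25 of largest excess.

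The 3 of the 25 genes that were not highest in B07 each pointed to another cell. Stra8, a gene induced by retinoic acid at the entry to meiosis, held 74.2% of its reads in F02. Dqx1 held 53.8% in C10. Plin2, which coats lipid droplets, held 57.2% in E04, at 2410 CPM against a next highest of 340 CPM. B07 itself was also the highest cell for the germ-cell genes Ddx4 (1150 CPM, next highest 305) and Dppa3 (1035 CPM, next highest 205). The whole germ-cell list of 8 genes summed to 2190 CPM in B07, nearly all of it from these 2, and its other members had next to no reads there. The 4 measured germ-cell genes, all wide (2 of them without B07, against 12.6% and 9.55% of all genes), had a median correlation of 0.01 with each other.

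The cell in E04 was a different case, with 20382064 reads and 8106 genes after thinning, close to the median. It was the highest of the 48 cells for the epithelial keratins Krt8 (780 CPM, next highest 45) and Krt18 (650 CPM, next highest 195), and for the trophectoderm factor Cdx2 (120 CPM, next highest 20). It was also highest for Plin2, for S100a6 (4960 CPM, median 100), a calcium-binding protein, for Klf6 (695 CPM), for the urokinase receptor Plaur (790 CPM), for the p53 target Perp (620 CPM), and for Ahnak (830 CPM), Anxa2 (715 CPM) and Lmna (525 CPM), which encode parts of the cell cortex and the nuclear lamina. Of the other genes of the 8 in the trophectoderm list, Tfap2c was at 55 CPM in it, with 2 cells above, and Gata3, Eomes, Elf5 and Krt7 had no read in it after thinning. Elf5 had none in the other 47 cells either. At the same time it held 710 CPM of Pou5f1, 6715 CPM of Dppa5a and the highest Dnmt3l of the 48 cells (2155 CPM), but no Dnmt3a read after thinning. Whether this well held 1 cell or more was not tested. These genes were looked up in E04 after their values had been seen.

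**Figure D3:**
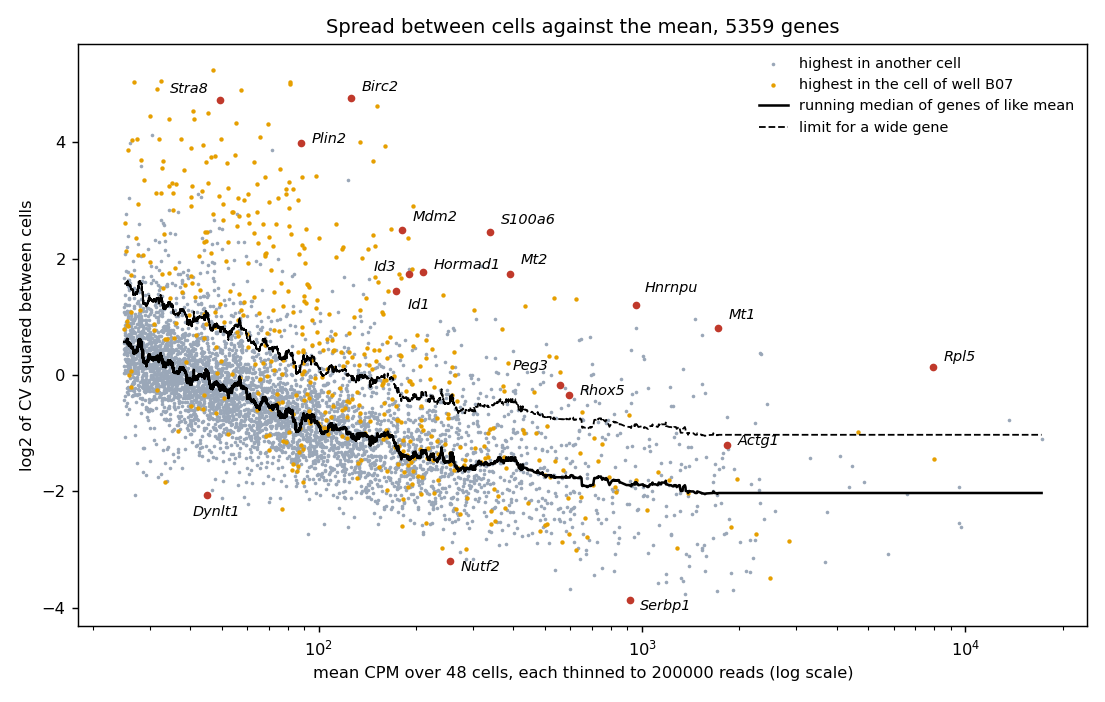
Spread of the 5359 genes over 48 cells, as log2 of CV squared on the y axis against the mean CPM at 200000 reads per cell on a log x axis, with the running median as a full line, the limit for a wide gene as a dashed line, genes highest in B07 in orange and named genes in red. Genes far above the line such as Birc2 (excess 5.78) are carried by 1 cell, whereas Hormad1, S100a6 and Id3 keep an excess over 3 when the highest cell of each gene is left out.

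With the highest cell of each gene left out, 343 genes were wide and other genes led. Hormad1, which encodes a protein of the meiotic chromosome axis, had an excess of 3.24 without its highest cell. It ranged from 0 over a median of 57.5 to 1830 CPM, and no cell held more than 18.1% of its reads. S100a6 (3.24), Id3 (3.19), Ndufa4 (2.93), the metallothionein genes Mt2 (2.88) and Mt1 (2.86), and Id1 (2.70) followed. Sycp1, of the synaptonemal complex, stood at 2.40 and Cldn4, of tight junctions, at 2.48. Ribosomal protein genes with short transcripts, Rps28, Rpl35, Rps29 and Rps27, were also among these 25. Of the 25 genes 13 were highest in 1 of the 9 cells low in Eef1a1, and 15 were still wide by this measure in the other 39 cells, where Sycp1 was too low to test. Hormad1 (3.07), S100a6 (2.63), Id3 (3.32), Id1 (2.91), Cldn4 (2.59) and Mt1 remained wide in the 39 cells. Ndufa4, Mt2 (0.54), Rps28 (-0.17), Rpl35 (-0.91), Rps29 (0.28) and Rps27 (0.43) did not.

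The SD of log2(CPM + 10), which gives single high cells less weight, called 153 genes wide (2.86% of 5359). Here the excess is the log2 ratio of variances, the square of this SD over the square of its running median. An excess of 1 is therefore a 2-fold variance, not a 2-fold SD. Rhox5, an X-linked homeobox gene whose expression is sensitive to DNA methylation, led by this measure with an excess of 2.94. It ranged from 0 over a median of 515 to 1750 CPM at 200000 reads, and 43 of 48 cells had a read. Id3 (2.43), Actg1 (2.24), Upp1 (2.19), Hormad1 (2.19), S100a6 (2.10), the arginine transporter Slc7a3 (2.10) and the nuclear receptor Nr0b1 (Dax1, 2.10) came next. Imprinted genes Peg3 (1.96) and Meg3 (1.74), cell cycle genes Cdc20 (1.93), Cdc6 (1.84) and Ccne1 (1.76), and Ldha (1.71) were also among the 25, as was Dnmt3a (1.84) of the label markers. All 25 were still wide by this measure in the 39 cells. Of these 25 genes 5 were shared with the 25 found without the highest cell, and 0 were shared by the 3 rankings. Hormad1, S100a6, Id1, Id3 and Mt1 are the genes shared between the last 2 rankings.

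The genes of smallest spread were broadly used ones. Dynlt1, a dynein light chain, had the lowest excess (-2.12), at 45 CPM on average after thinning, with values from 0 to 95. Serbp1 (-1.97), an RNA-binding protein of the ribosome, ranged only from 465 to 1645 CPM. Snu13 (-1.95), of the spliceosome, and the elongation factor Eef1b2 (-1.84) followed, with Nutf2, Rpl13a, Bax, Ywhae, Rpl10 and Hnrnpa3.

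Inhibitors of differentiation, the targets of BMP signalling encoded by the Id genes, were low in most cells and high in a few. Of 8 genes of this pathway 3 were abundant enough to measure, Id1, Id2 and Id3, and all 3 were wide by both measures, which called 12.6% and 2.86% of all genes. Id1 ranged from 0 over a median of 47.5 to 1280 CPM, Id3 from 0 over 55 to 1505 CPM and Id2 from 0 over 50 to 1285 CPM. Id1 and Id3 varied together (Spearman rho = 0.67 over 48 cells, 0.73 without B07). Each was the nearest partner of the other among the 5058 other established genes.

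Co-variation was described by Spearman's rho over the 48 cells at 200000 reads each. The cells share a plate, and no label separates cultures or library preparations within it. They differ in the number of genes detected, so rho was also computed with that number held fixed (partial rho). Over all 14356761 pairs of the 5359 genes the median rho was 0.06 and 1.29% of pairs reached 0.5. With detected genes held fixed the median was 0.03 and 0.601% of pairs reached 0.5. Totals are equal after thinning, so a group of genes that takes more of the reads of a cell leaves fewer for the others. The counts of pairs within the gene lists below are to be read against these shares. Pairs that share a gene are not independent of each other. Without the 9 cells low in Eef1a1 the median over all pairs was 0.04 and 0.558% reached 0.5.

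Many of the values below rest on those 9 cells. Their summed level of glycolysis genes was 820 to 6020 CPM (median 3690), against 3275 to 21465 CPM (median 11040) in the 39 others. Replication genes were at 1935 to 3540 CPM in the 9 cells and 3005 to 10470 CPM in the 39. Label markers had a median of 425 CPM against 1470 CPM, metallothioneins one of 4480 against 1045 CPM, and ribosomal proteins one of 189645 against 95605 CPM. The ranges of both sets of cells overlapped in each of these 5 sums. Values without the 9 cells are given beside the lists whose count of pairs moved most.

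Genes of DNA replication and of glycolysis had larger shares of co-varying pairs than all genes together. Of 24 replication genes 23 were measured, and 91 of their 253 pairs reached 0.5, with a median rho of 0.39 (0.36 partial). This was 38 pairs and a median of 0.27 without the 9 cells. The closest were the helicase subunits Mcm2 and Mcm3 (0.83, and 0.76 without the 9 cells). Mcm2 ranged from 0 over 328 to 805 CPM. Of the 23 genes 2 were wide, Cdc6 and Ccne1, a share below the 12.6% of all genes. The 24 genes of G2 and mitosis had 19 of 276 pairs at 0.5 and a median of 0.21, led by Cenpf with Hmmr (0.75). In the 39 cells it was 31 pairs, with a median of 0.24. The summed levels of the replication and the mitosis lists were nearly unrelated over cells (rho = -0.12).

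Of 13 genes of glycolysis and the response to low oxygen 12 were measured, and 43 of 66 pairs reached 0.5, with a median of 0.54 (0.41 partial). With the 9 cells left out, 18 pairs did and the median was 0.35. Pkm and Pgam1, enzymes of the later steps of glycolysis, had a rho of 0.87, and Ldha and Aldoa 0.82 (0.76 and 0.69 without the 9 cells). Ldha, which makes lactate from pyruvate, ranged from 130 over 1603 to 4875 CPM. Of the 36 pairs between Dnmt3a, Dnmt3b or Dnmt3l and a glycolysis gene 17 reached 0.5, with a median of 0.49 (0.39 partial), and 3 without the 9 cells, with a median of 0.27. Replication and glycolysis genes had 83 of 276 pairs at 0.5 and a median of 0.38, and 11 pairs and a median of 0.15 without the 9 cells. The summed level of the glycolysis list rose with the number of detected genes (rho = 0.52), as did that of the label markers (0.51), and the part of that number in these values was not tested beyond the partial rho.

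Dnmt3b was nearest to Fkbp4, a cochaperone of Hsp90 (rho = 0.78), then to Ldha (0.73), Ahcy (0.71), which clears the product of methyl transfer, and the glycolytic enzyme Eno1 (0.70). These were 0.68, 0.61, 0.54 and 0.52 without the 9 cells. Dnmt3a was nearest to the fatty acid synthase gene Fasn and to the kinase gene Pim2 (both 0.68). Dnmt3l was nearest to Bcam (0.67), Aup1 and L3mbtl2 (both 0.64). Among themselves, Dnmt3a and Dnmt3b had a rho of 0.58 (0.49 partial), Dnmt3b and Dnmt3l 0.39 (0.22 partial) and Dnmt3a and Dnmt3l 0.23 (0.07 partial). Without the 9 cells these were 0.45, 0.14 and 0.01. The 2 enzymes had the closest tie of these 3 pairs.

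Naive genes had a median rho of 0.24 over 15 pairs, of which only Nanog with Tfcp2l1 reached 0.5 (0.54). The 5 measured formative and primed genes, Lef1, Zic5, Dnmt3b, Grhl2 and Etv5, had 0 of 10 pairs at 0.5 and a median of 0.28. Pou3f1 was too low to enter. General pluripotency genes had 1 of 28 pairs at 0.5, Pou5f1 with Utf1 (0.51), and a median of 0.16. ERK target and feedback genes had 1 of 28 pairs at 0.5, Dusp6 with Myc (0.53). Of 4 measured LIF-STAT3 genes, Socs3 with Pim3 (0.61) and Pim3 with Stat3 (0.56) reached it. No pair of these 5 lists reached 0.5 without the 9 cells.

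**Figure D4:**
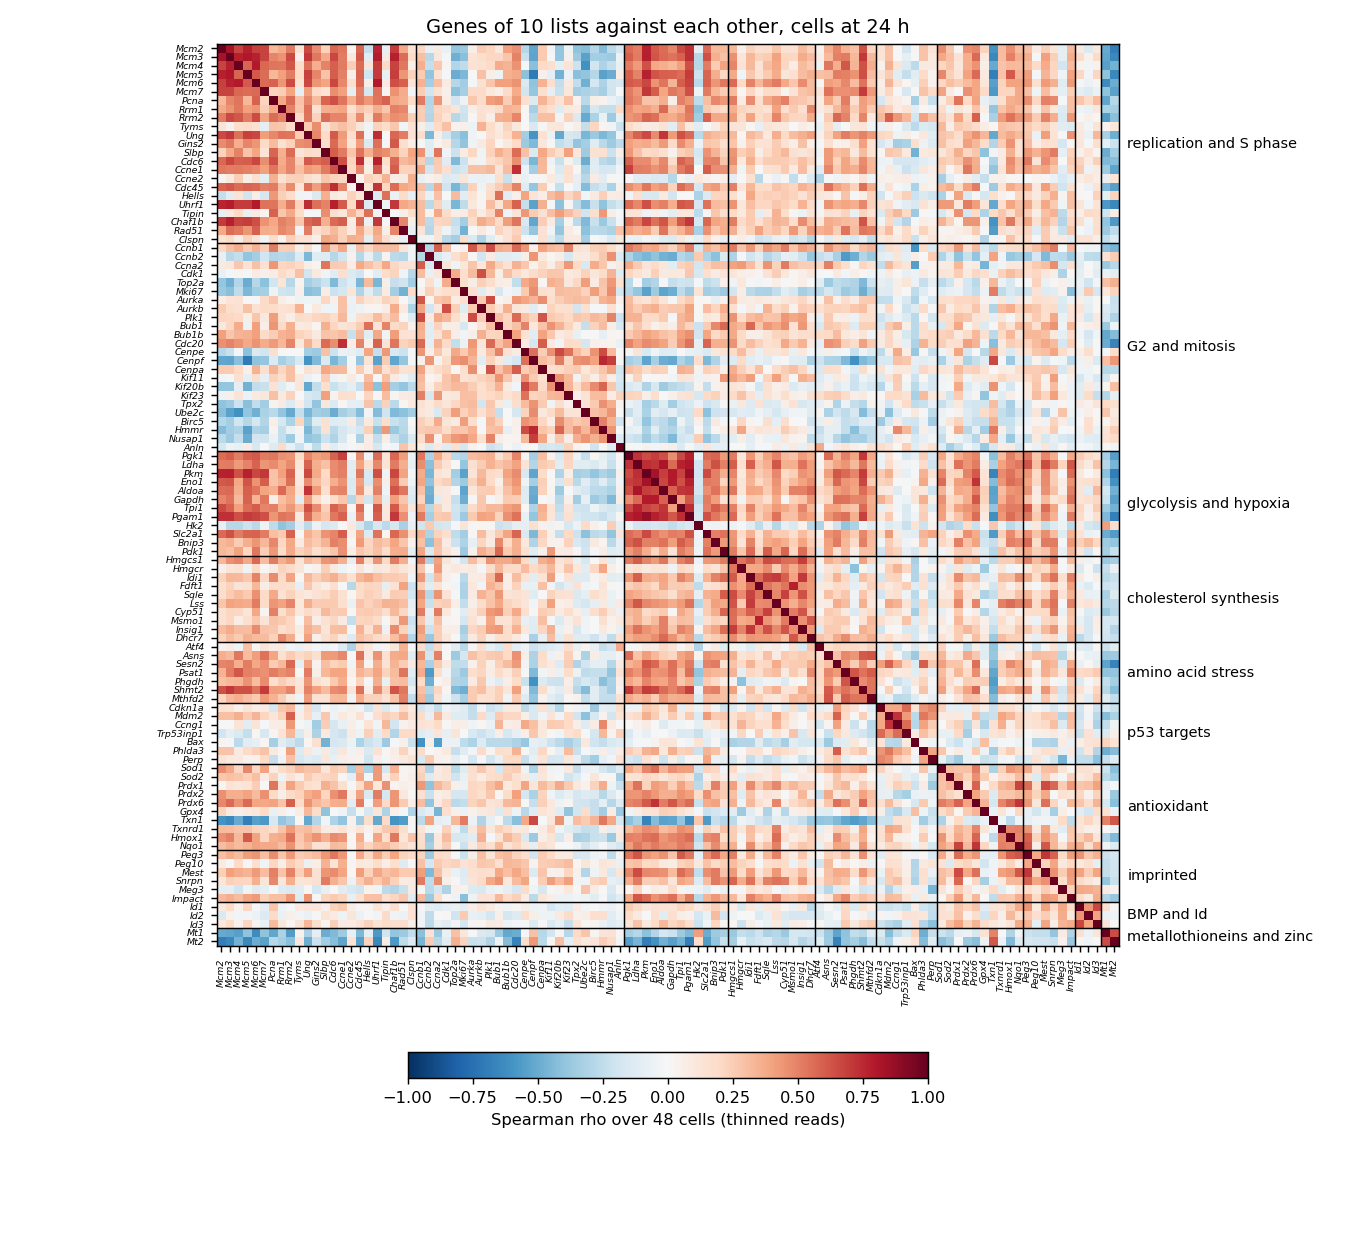
Spearman's rho between genes of 10 lists over 48 cells, on a colour scale, with genes in the same order on both axes and list borders drawn. Red blocks along the diagonal mark replication, glycolysis and cholesterol synthesis, whose median rho within the list was 0.39, 0.54 and 0.48, and the metallothionein columns are blue against replication genes (median -0.41). Without the 9 cells low in Eef1a1 these 4 medians were 0.27, 0.35, 0.49 and -0.13.

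Genes of cholesterol synthesis were uneven between cells and varied together. Of 12 genes 11 were measured and 7 were wide (10 without B07), against 12.6% and 9.55% of all genes. Of 55 pairs 23 reached 0.5, with a median of 0.48 (0.39 partial), and 26 without the 9 cells, with a median of 0.49. Fdft1, the squalene synthase gene, and Msmo1, which acts later in the pathway, had a rho of 0.78, and Idi1 had 0.71 with Insig1 and 0.70 with Lss. Hmgcs1, which acts early in the pathway, ranged from 0 over 65 to 760 CPM and Msmo1 from 0 over 35 to 530 CPM. The summed level of the list ran from 120 over 555 to 4620 CPM. Of the p53 targets 7 of 9 were measured, 4 were wide (12.6% of all genes were), and 4 of 21 pairs reached 0.5, led by Mdm2, the ligase that removes p53, with Ccng1 (0.72). Mdm2 ranged from 0 over 85 to 2900 CPM, the highest in well D07.

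Genes that answer oxidative, amino acid and metal stress were taken list by list. Prdx6 and Nqo1, detoxifying enzymes, had a rho of 0.71, and 6 of 45 pairs of the antioxidant list reached 0.5 (3 without the 9 cells). Asns with Mthfd2 and Psat1 with Phgdh, enzymes of amino acid and folate metabolism, each had 0.63, and 7 of 21 pairs of that list reached 0.5, with a median of 0.44. Once the 9 cells were left out 0 did and the median was 0.10. The metal-binding proteins Mt1 and Mt2 were read in 50 of 50 cells and had a rho of 0.65, which was 0.39 without the 9 cells. Mt1 ranged from 145 over 988 to 11015 CPM over the 48 cells and Mt2 from 5 over 160 to 4020 CPM. With the replication genes they had a median rho of -0.41 over 46 pairs, of which 15 were at -0.5 or lower. Without the 9 cells the median was -0.13 and 1 pair was that low. Over all pairs of genes 0.494% were that low. The summed level of the metallothionein list fell with the number of detected genes (rho = -0.44), and partial rho with the replication genes was -0.33.

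**Figure D5:**
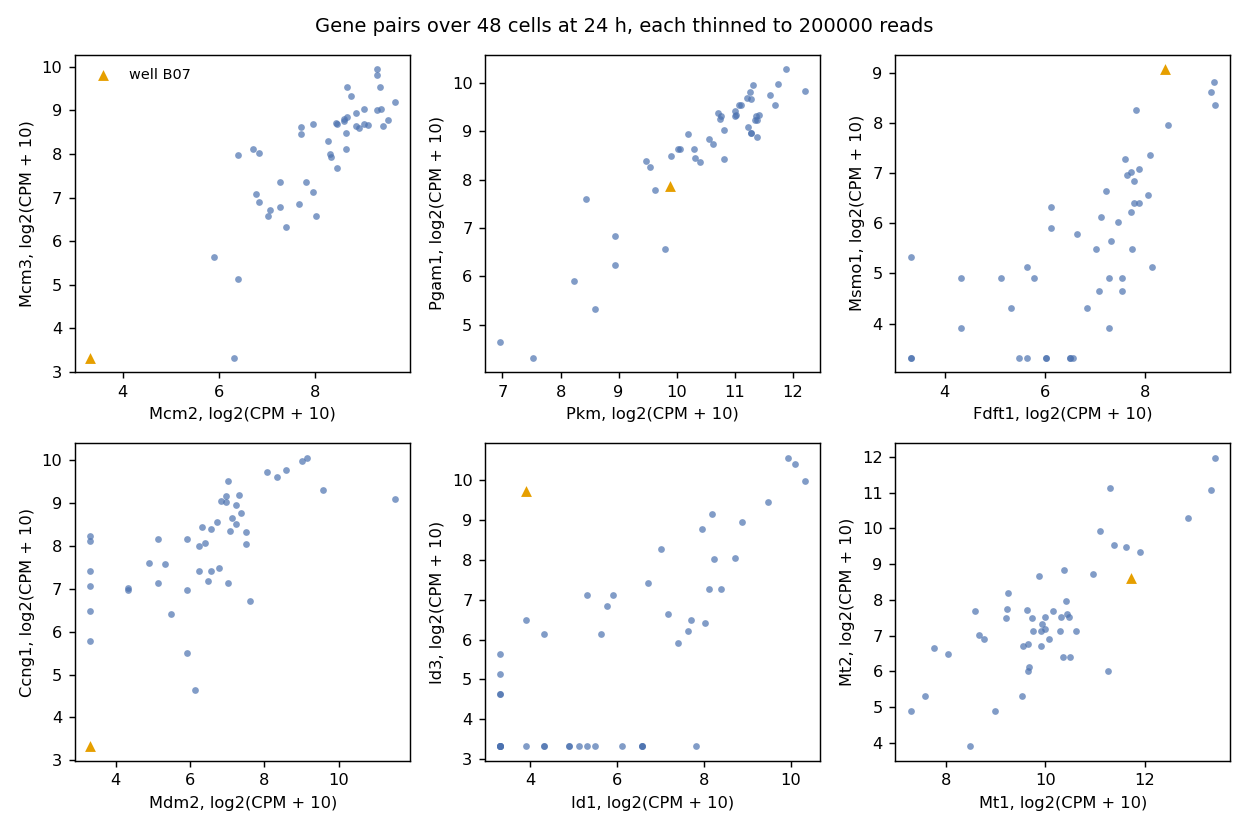
Pairs of genes that varied together over the 48 cells, each point 1 cell at 200000 reads and B07 an orange triangle, with both axes as log2(CPM + 10). The points of Mcm2 with Mcm3 (rho = 0.83) and of Pkm with Pgam1 (0.87) lie along a diagonal, while Id1 with Id3 (0.67) rests on cells high in both beside many that are low in both.

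The promoters of genes from 3 of these lists are printed because their members moved together and textbook regulators are known for each, the zinc-sensing factor MTF1 for metallothioneins, the sterol-sensing factor SREBP for cholesterol synthesis and E2F for replication. Each is the 250 bases before the first start of the gene in RefSeq on build GRCm38.p6, 5′ to 3′ along the gene. They are chr8:94178839-94179088 and chr8:94172368-94172617 on the plus strand, chr13:119690101-119690350 on the plus and chr8:64733579-64733828 on the minus strand, and chr1:128359706-128359955 on the minus and chr11:98907901-98908150 on the plus strand. Capitals mark matches on either strand to the letters TGCNCNC in the metallothionein genes, to TCACNCCAC or CCAAT in the cholesterol genes and to TTTCCCGC or TTTGGCGC in the replication genes.
Mt1: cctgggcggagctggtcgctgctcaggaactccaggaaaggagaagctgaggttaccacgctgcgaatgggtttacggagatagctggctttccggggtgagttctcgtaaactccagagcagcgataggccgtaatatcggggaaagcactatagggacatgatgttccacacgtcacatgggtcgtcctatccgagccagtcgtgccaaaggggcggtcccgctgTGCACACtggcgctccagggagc
Mt2: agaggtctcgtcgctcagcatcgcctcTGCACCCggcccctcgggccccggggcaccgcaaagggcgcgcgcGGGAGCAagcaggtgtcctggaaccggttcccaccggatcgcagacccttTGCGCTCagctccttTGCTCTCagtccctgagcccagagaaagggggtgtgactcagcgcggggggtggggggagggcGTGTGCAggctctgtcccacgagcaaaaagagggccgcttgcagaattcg
Hmgcs1: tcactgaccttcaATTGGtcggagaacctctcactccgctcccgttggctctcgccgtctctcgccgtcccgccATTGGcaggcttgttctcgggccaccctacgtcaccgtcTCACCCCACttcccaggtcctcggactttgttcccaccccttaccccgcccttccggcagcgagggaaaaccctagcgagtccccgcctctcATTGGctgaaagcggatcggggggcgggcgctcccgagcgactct
Msmo1: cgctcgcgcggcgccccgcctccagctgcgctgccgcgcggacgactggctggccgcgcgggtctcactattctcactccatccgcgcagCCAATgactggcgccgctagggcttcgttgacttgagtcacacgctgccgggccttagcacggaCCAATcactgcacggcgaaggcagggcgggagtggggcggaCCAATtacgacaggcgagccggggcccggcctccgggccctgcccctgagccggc
Mcm6: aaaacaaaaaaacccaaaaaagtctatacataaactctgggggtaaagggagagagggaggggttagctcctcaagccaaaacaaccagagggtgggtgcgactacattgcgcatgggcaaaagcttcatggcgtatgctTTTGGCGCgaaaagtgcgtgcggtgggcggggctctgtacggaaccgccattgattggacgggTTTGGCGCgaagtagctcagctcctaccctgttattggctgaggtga
Cdc6: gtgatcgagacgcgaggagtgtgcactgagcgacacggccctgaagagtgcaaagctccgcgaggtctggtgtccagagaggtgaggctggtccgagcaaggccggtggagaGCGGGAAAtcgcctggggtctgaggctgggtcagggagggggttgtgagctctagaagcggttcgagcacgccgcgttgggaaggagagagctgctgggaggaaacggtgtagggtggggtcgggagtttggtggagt
Mt2 held 5 matches to TGCNCNC, a loose form of the metal response element in which N is any base, and Mt1 held 1. These short letters occur in 44.4% of all 32851 promoter windows of this length. The sterol form TCACNCCAC was found in Hmgcs1, in 1 of the 7 cholesterol genes with a window here and in 1.05% of all windows, and CCAAT was found in 6 of the 7, in 12 of 19 replication genes, in 2 of 4 metallothionein genes and in 33.8% of all. The E2F form TTTGGCGC was found in 2 of 19 replication genes, Mcm6 with 2 matches and Mcm5 with 1, and in 0.417% of all windows. TTTCCCGC was found in 3 of the 19, Cdc6, Mcm7 and Hells, and in 0.895% of all. A match is a description of letters, not a site, and the motifs were chosen after the lists were known. Every printed gene holds a match, so the printed genes do not stand for their lists.

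Genes of translation and of respiration also varied together. Of 79 ribosomal protein genes 76 were measured, and 1463 of their 2850 pairs reached 0.5 with a median of 0.51 (0.48 partial), up to 0.94 for Rpl36 with Rplp1. Their summed level ranged from 53485 over 98828 to 256450 CPM. It was higher in cells with fewer detected genes (rho = -0.54) and lower in cells with a high mitochondrial share (-0.55). All 21 pairs of 7 mitochondrially encoded genes reached 0.5, with a median of 0.72. Between the summed levels of both lists rho was -0.55, and between those of ribosomal protein and replication genes -0.57. With the number of detected genes held fixed these were -0.56 and -0.47, and without the 9 cells -0.64 and -0.24.

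Of 14 imprinted genes 6 were measured, and 2 of their 15 pairs reached 0.5, with a median of 0.39 (0.30 partial, 0.28 without the 9 cells). Peg3 with Mest, both expressed from the paternal copy, had a rho of 0.71 and Peg3 with Snrpn 0.59. Meg3 and Rian, non-coding RNAs of the same maternally expressed cluster, had a rho of 0.89, Rian being no member of the list, and Meg3 ranged from 0 over 70 to 735 CPM. S100a6 was nearest to S100a10 (0.66) and Lgals1 (0.65). Hormad1 was nearest to Hnrnpd (0.69), Ppig and Snrpe (both 0.63). Snrpe may share reads with a near-identical copy. Rhox5 had no close partner, Lyar being the nearest (0.55).

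Among the 200 established genes of largest excess, 250 of 19900 pairs (1.26%) reached a rho of 0.5, a share close to that of all genes. For the widest 200 without the 9 cells it was 131 pairs, where 0.558% of all pairs of genes reached 0.5. Average linkage on 1 - rho gave 6 groups of 5 or more genes. The largest held 14 genes, among them Xpo1, Srsf1, Zfp988, Vps35, the polycomb genes Eed and Mtf2, Pgrmc1, Nufip2, Rbm26 and Oip5, with a median rho of 0.47 and a rho of 0.64 between their mean level and the mitochondrial share. Another, of 11 genes with Fkbp3, Uqcrb, Rpl5, Ndufa4, Hnrnpu, Mt2, Rpl36al, Cenph, Thoc2 and Srrm1, had a median of 0.62. The third, also of 11 genes, held Rps29, Rpl38, Rps27, Rps28, Rpl35 and Rpl36 with Atpif1, Atp5k, Pfdn1, Ndufc1 and Mt1, had a median of 0.68 and consisted of short transcripts (median 1109 bases, against 4162 over all genes tested with a length). Its level fell with the number of detected genes (-0.47). Dtx1, Nup93, Tnpo1, Dhodh, Dhcr7, Zfp143, Tubb2b and Slc1a4 formed a group of 8, Bend4, Med20, Ogfr, Cldn4, Litaf and Chpf a group of 6, and the p53 targets Trp53inp1 and Pmaip1 a group of 5 with Phf3, Sdc4 and Taf6. In the 39 cells the medians of the first 3 groups were 0.43, 0.45 and 0.43.

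These groups depended on B07. Without it, 1031 of the 19900 pairs of the then widest 200 genes reached 0.5 and there were 10 groups. Over all pairs of genes without B07 the share at 0.5 was 1.18%. The largest 2, of 35 and 28 genes, were led by Uqcrb and by Rps29. The smaller ones included a group with the sterol genes Hmgcs1, Msmo1, Sqle and Dhcr7 (median rho 0.55), the p53 targets Mdm2, Trp53inp1, Plk2, Pmaip1 and Apaf1 with Sdc4 (0.47), a group with Plin2, Ahnak, Lmna, Cavin1, Anxa2 and Tsc22d1 (0.48), the first 3 and Anxa2 being highest in E04, the set S100a10, Tmsb4x, Bex1, S100a6 and Sfn (0.60), and Peg3 and Mest with Slc16a3, Hmox1 and Cdc6 (0.50). With the 200 genes ranked by the SD of log values there were 7 groups, the largest of 64 genes with Pgam1, Pkm, Ldha, Eno1, Mcm3, Mcm5, Mcm6, Ccne1, Dnmt3a and Dnmt3b, at a median of 0.48 (0.23 without the 9 cells). Leaving out B07 and ranking by log values here were chosen after seeing the data.

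The cells in B05 and B06 had no Hprt read among 2184078 and 3758761 reads. They had 7896 and 7721 genes with a read and mitochondrial shares of 2.12% and 2.93%, within the range of the other cells. Thinned to 200000 reads they had 6720 and 6191 genes, also inside that range but under the median of 8079. In both, Nanog (504 and 711 CPM), Zfp42 (1182 and 1107 CPM) and Pou5f1 (1761 and 1232 CPM) were above the highest of the other 48 cells, which reached 426, 1059 and 1106 CPM. The naive genes Klf4, Esrrb and Tfcp2l1 lay inside the range of the 48 cells. Klf4 was at 51.3 and 1.06 CPM, where the others had a median of 10.4 and a highest of 132. Esrrb was at 120 and 3.19 CPM (median 19.8, highest 331) and Tfcp2l1 at 32.1 and 58.5 CPM (median 31.6, highest 390 in the others). Mt1 (85.2 and 136 CPM) was below the lowest of the 48, 166 CPM. Ftl2 took 64% and 66.2% of the reads of Ftl1 and Ftl2 together, against at most 3.31% in the others. The label markers were not set apart in the same way. Dnmt3b (263 and 189 CPM) and Dnmt3l (679 and 473 CPM) lay inside the range of the others, Dnmt3a (20.1 and 18.6 CPM) lay in its lower part, and Pou3f1 was at 0, as it was in some of the others. Rhox5 was at 0 and 5.32 CPM, against a median of 499.8 CPM in the others. The 2 cells differed in Y-linked reads, with 1954 reads of Ddx3y, Eif2s3y, Kdm5d and Uty in B05 and 0 in B06, so they were not alike in every plate marker. With 2 cells chosen for their lack of Hprt reads, these values are a description, and how the wells came to differ was not tested.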

How the data were processed

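The authors aligned reads with HISAT2 to GRCm38 (submitters' processing notes) and deposited counts of reads per gene for 288 wells, whole numbers that also cover wells failing the limits. The counting tool and annotation are not given in the sources used here. Counts were scaled to CPM, or each cell was thinned to 200000 reads by 1 seeded draw, which makes CPM a multiple of 5. Values came from Python 3.11.15, numpy 2.4.6, pandas 2.3.3 and scipy 1.17.1, and TMM factors from edgeR 4.0.16. The spread and co-variation steps were tested on simulated data. Transcript lengths came from GENCODE vM21 and promoters from RefSeq, which may differ from the annotation the authors used.

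The cells and all 30 gene lists, of which 28 were written out and 2 follow gene names, were chosen with earlier results of these data known. Genes are named where they are label markers, among the 25 of highest mean CPM, the 25 of largest or 10 of smallest excess, the first 10 of the 5 largest groups, or list members, among established symbols. Hprt, Ftl1, Ftl2 and the Y-linked genes were known from earlier results. Alternatives were other cells, depths, measures of spread, minimum means and correlations. Genes named from the rankings without the highest cell and of log values, nearest partners, cells B07 and E04, the 9 cells low in Eef1a1, and motifs were chosen after seeing the data. Values of 1 list member are not reported here.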

Additional observations from a re-analysis of the deposited data

How the results depend on the processing

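No paired analysis was possible because the wells of different plates hold different cells and share only a position. With no limits 96 wells were kept, and with the mitochondrial limit read as 0.15 percent, 0. Thinning lowered the share of cells with a Pou3f1 read from 76% to 58%. Per kilobase 15 of the 25 most abundant genes remained. The count of wide genes, 675, became 343 with each gene's highest cell left out, 153 on log2 values, and 1054 of 9644 genes (10.9%) or 293 of 1936 (15.1%) with a minimum mean of 1 or 20 thinned reads, against 12.6%. Of the 25 genes of largest excess, 2 remained at 1000000 reads, a depth that only 45 of the 48 cells reach and B07 and F02 do not, 23 with no thinning, 1 without the highest cell, 0 on log2 values, 6 at the minimum mean of 20 and 3 without well B07. Leaving out each cell in turn gave 511 (without B07) to 692 wide genes and kept 3 (without B07) to 25 of the 25. The 250 pairs at a rho of 0.5 among 200 genes became 892 at 1000000 reads in those 45 cells, 1498 with Pearson r of log2 values, 613 with TMM factors, 1892 with the 200 genes taken by log2 values 1015 without the highest cell and 131 without the 9 cells low in Eef1a1. Leaving out each cell gave 213 (without C10) to 1031 (without B07). The settings without B07 as its own alternative, without the 9 cells and with other choices of the 200 genes were added after seeing the data. The causes were not tested. Without the 9 cells the median rho of amino acid stress genes moved from 0.44 to 0.10 and that of label markers from 0.39 to 0.14, by more than the spread over their pairs. The other medians of 14 lists moved by less than that in each of 9 alternatives, from 0.27 to 0.45 for replication, 0.35 to 0.60 for glycolysis and 0.39 to 0.56 for cholesterol synthesis. The number of cells and the depth of 200000 reads limit the precision of the spread, most for genes of few reads.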
